A study of Mus musculus with 3 samples.

Results

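The genes described here are the 2 chains of the alpha-v beta-5 integrin, Itgav and Itgb5, and 8 genes of the clathrin adaptor network that holds this integrin in flat clathrin lattices: Numb, Dab2, Eps15, Eps15l1, Itsn1, Fcho2, Picalm and Pak4. These genes were taken by gene symbol from a table of 35764 symbols, and all 10 were listed. The 8 are called adaptors below for short, although Pak4 encodes a kinase and Itsn1 a scaffold. Levels are TPM, a gene's share of all transcripts after correction for transcript length. Genes of one library can be set side by side, apart from estimation errors particular to a gene, which were not measured. The libraries came from KPC78, a mouse line labelled as pancreatic ductal adenocarcinoma cells of WT genotype, and form 1 group of 3 replicates with no treated, control or time group. The sources used here do not give the alleles and strain behind the line, or say whether it is 1 clone. The replicates are called biological, but nothing says that they came from separate cultures, so the spread between them may be technical. The stated purpose was to measure integrin subunit expression.

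The libraries summed to between 999728 and 999776 TPM, and 11665 genes, or 32.6% of all symbols, reached 1 TPM in every library and count as detected below. This share is the background for each count of detected genes below, and the lists were chosen with earlier results of these data known. The symbols include pseudogenes, so the share among protein-coding genes is higher. Of the detected genes 10814 had a protein-coding transcript, and the motif searches below covered 21720 coding genes. Read depth is unknown for these libraries, so precision comes from the replicates alone. Of 6 ductal and epithelial markers 6 were detected, with means from 5.91 TPM for Sox9 to 1472 TPM for Krt18. Of 12 markers of leukocytes, endothelium, acinar and endocrine cells and fibroblasts 0 were detected, and their summed level lay between 0.418 and 0.647 TPM per library. Adgre1, Prss1, Cpa1, Ins1, Ins2 and Gcg were listed at 0 in every library.

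Integrins are receptors made of an alpha and a beta chain that join cells to the matrix. Most integrins are anchored through talin in focal adhesions, but in human cell lines alpha-v beta-5 also sits in large, flat and long-lived clathrin lattices that attach the cell without talin. There the phosphotyrosine-binding domains of NUMB and DAB2 dock on an NPxY motif in the cytoplasmic tail of beta chains, and through these adaptors the integrin is tied to AP2 and clathrin. FCHO2 bends or senses membrane where coats start, EPS15 and EPS15L1 cluster AP2, intersectin (Itsn1) scaffolds these early proteins, PICALM binds clathrin and membrane lipid, and PAK4 is a CDC42-activated kinase that in human cells binds the beta-5 tail.

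The docking site is shown first, as coding sequence, because it is where Numb and Dab2 meet the integrin. The lines give 84 bases of spliced coding sequence, 5′ to 3′ on the coding strand, from GENCODE M21 transcripts (GRCm38), with the codons of the first NPxY motif within the last 60 codons in capitals.
Itgb5: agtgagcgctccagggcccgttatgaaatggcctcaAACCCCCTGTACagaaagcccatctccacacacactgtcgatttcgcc
Itgb1: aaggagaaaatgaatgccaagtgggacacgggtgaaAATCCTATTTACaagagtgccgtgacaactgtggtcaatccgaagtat
Itgb3: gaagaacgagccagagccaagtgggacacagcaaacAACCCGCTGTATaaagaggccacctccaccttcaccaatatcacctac
Itgb6: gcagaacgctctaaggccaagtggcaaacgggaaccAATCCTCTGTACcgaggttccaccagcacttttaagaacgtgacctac

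The search was for AAC or AAT, then CCN, any codon, then TAC or TAT, in frame. In Itgb5 the motif lies at chr16:33948663-33948674 on the plus strand, in exon 15, the last exon of its transcript, and 25 codons follow it before the stop. In Itgb1 the marked motif lies at chr8:128732029-128732040 in exon 16 of 16 with 15 codons after it. Itgb1 has 2 such motifs in its last 60 codons, and the second ends the stretch shown, in lower case. The transcripts shown for Itgb5, Itgb3 and Itgb6 have 1. In Itgb3 the motif lies at chr11:104667086-104667097 in exon 15 of 15 with 15 codons after it. In Itgb6 it lies at chr2:60600566-60600577 on the minus strand in exon 15 of 15 with 26 codons after it. Aligned on the motif, the Itgb5 stretch matched that of Itgb3 at 45 of 84 bases (53.6%), that of Itgb6 at 43 (51.2%) and that of Itgb1 at 31 (36.9%). Of the 3 complete protein-coding Itgb5 transcripts 2 carry the motif, and the one with the longest coding sequence, 2448 bases, does not, and in the annotation its preceding coding exon ends at 33947852, not at 33947881 as in the other 2, with another reading frame in the last exon. The deposited values are per gene, so the share of Itgb5 RNA that encodes the docking site was not measured. Itgb6 also has a complete transcript without the motif in its last 60 codons, with a coding sequence of 2292 bases. Itgb8, another partner of alpha-v, has no such motif in its last 60 codons.

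On the adaptor side, the short motif NPF is known as the ligand of the EH domains carried by the Eps15 proteins and intersectins, and DPF as a ligand of AP2. NPF codons (AAC or AAT, CCN, TTC or TTT) occurred 5 times in frame in the longest coding sequence of Dab2, 2 times in Picalm and 1 time in Numb, and were found in 5.17% of 21720 coding genes at all. The last of each is shown in capitals to mark where EH-domain proteins can meet these adaptors.
Numb: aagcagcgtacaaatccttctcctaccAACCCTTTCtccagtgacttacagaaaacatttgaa
Dab2: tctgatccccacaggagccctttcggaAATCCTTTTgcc
Picalm: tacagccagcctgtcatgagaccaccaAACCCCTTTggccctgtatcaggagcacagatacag

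The Numb codons lie at chr12:83795478-83795486 (minus strand), those of Dab2 at chr15:6437031-6437039 and those of Picalm at chr7:90196991-90196999 (both plus strand), on GRCm38. DPF codons (GAC or GAT, CCN, TTC or TTT) occurred 13 times in Eps15 and 21 times in Eps15l1, and these 2 genes were the ones with 10 or more among the coding genes searched, of which 4.53% held any. Numb and Dab2 held 2 each and Picalm 1, while neither motif was found in Itgav, Itgb5, Itsn1, Fcho2 or Pak4. Coding sequences differ in length (median 1179 bases over all genes, from 1779 bases in Pak4 to 5157 bases in Itsn1), and a match is a description of letters, not a measured binding site.

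All 10 genes, each annotated as protein-coding, were detected, where 32.6% of all symbols, coding or not, were. Itgb5, the beta-5 chain, stood at 382, 384 and 403 TPM in replicates 1, 2 and 3, above 97.1% of detected genes. Itgav, its alpha partner, stood at 53.6, 50.5 and 55.1 TPM, above 75.1% of detected genes. Every Itgb5 value lay above every value of the other 9 genes. The genes nearest to Itgb5 in level over the 3 libraries were Scpep1, Cd44 and Bag1, at log2 distances of 0.018, 0.029 and 0.050, and those nearest to Itgav were Elf2, Wdr74 and Capn5, at 0.019, 0.020 and 0.022, which describes levels in 3 libraries of 1 group and nothing more.

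Picalm, the clathrin assembly adaptor, was the most abundant of the 8 adaptors, at 103, 87.5 and 102 TPM. Eps15l1 stood at 49.5, 42.3 and 50.2 TPM and its paralog Eps15 at 36.7, 35.4 and 38.3 TPM. The range of Eps15l1 overlapped neither that of Eps15 nor that of Itgav. The kinase gene Pak4 stood at 29.1, 27.7 and 32.1 TPM. Numb, the cargo adaptor also known as a Notch antagonist, stood at 27.5, 25.4 and 28.1 TPM, within the range of Pak4 in replicate 3 and below all Pak4 values in replicates 1 and 2. Itsn1, the intersectin scaffold, stood at 24.6, 22.4 and 24.7 TPM. Fcho2, the membrane-bending coat initiator, stood at 22.3, 19.5 and 22.8 TPM, and Dab2, the second cargo adaptor, at 19.4, 17.2 and 20.9 TPM. The range of Fcho2 overlapped those of Itsn1 and Dab2, but the order of the 10 genes was the same inside each of the 3 libraries. Dab2 and Fcho2 lay near the middle of detected genes, above 44.8% and 48.3% of them.

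**Figure D1:**
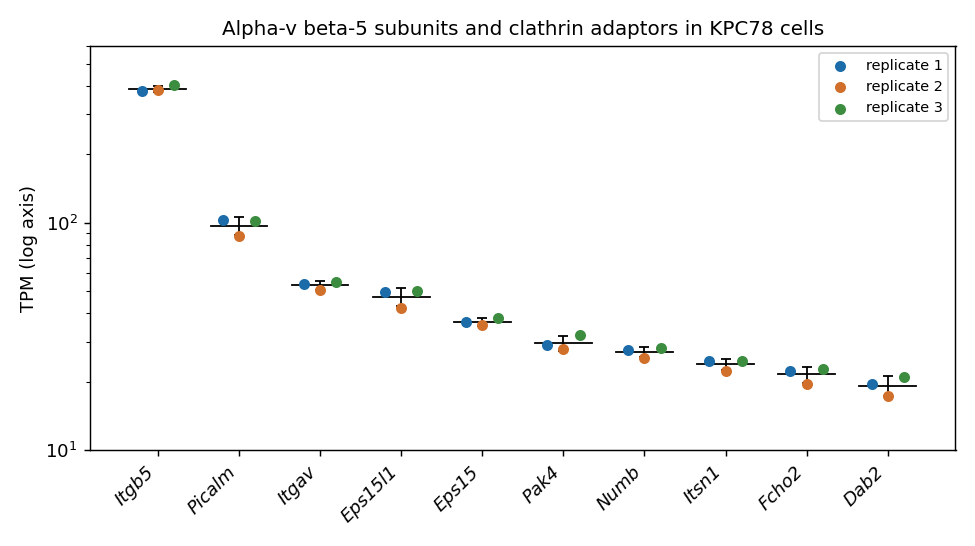
TPM of the 10 genes (log axis) in each of 3 KPC78 libraries; points are libraries, the long line is the mean and the error bars are the SD (n = 3). Itgb5, with a mean of 389.5 TPM, stands above the other 9 genes, which run from Picalm at 97.2 TPM to Dab2 at 19.2 TPM.

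To compare genes, the log2 ratio of (TPM + 1) to a reference gene was taken inside each library for each of the 12013 other genes whose mean reached 1 TPM, and tested with limma, with p-values adjusted by Benjamini-Hochberg over all of them. Such p-values measure the spread between libraries only. An error of TPM that is particular to a gene and repeats in every library is not in them, which matters most for small steps. Against Itgb5 all 9 other members were lower, where 96.9% of all genes were, so the count says no more than that Itgb5 is an abundant gene. The excess was 4.03 ± 0.34-fold (SD, n = 3) over Picalm, 14.4 ± 0.63-fold over Numb and 20.4 ± 1.65-fold over Dab2 (log2 ratios of -1.99, -3.80 and -4.28 to Itgb5, adjusted p = 1.10e-07, 2.10e-09 and 2.33e-09, limma). The 8 adaptors, with the kinase gene Pak4 counted among them, added up to 0.777 ± 0.049 times the TPM of Itgb5 (SD, n = 3). Of their sum 32.1% ± 0.71 came from Picalm. TPM of RNA is not protein, and these ratios are not numbers of molecules at a lattice.

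Itgb5 is not the only beta chain whose tail carries the docking motif. Itgb1, which pairs with alpha-v and with many other alpha chains, stood at 394, 389.7 and 413 TPM. Itgb3 stood at 10.4, 9.98 and 10.5 TPM, and Itgb6 and Itgb8 had means of 0.364 and 0.508 TPM. Of the summed TPM of these 5 beta partners of alpha-v, Itgb5 made up 48.7% ± 0.21 (SD, n = 3).

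Itgav, the scarcer chain of the receptor, was closer to the adaptors. Against Itgav, Itgb5 and Picalm were higher and the 7 other adaptors were lower, where 22.1% of all genes were higher and 73.4% lower. Picalm was 1.83 ± 0.092-fold above Itgav (SD, n = 3; log2 ratio 0.86, SE 0.047, adjusted p = 1.28e-05, limma). Numb stood at 0.509 ± 0.0054 of Itgav and Dab2 at 0.361 ± 0.019 (SD, n = 3; log2 ratios of -0.95 and -1.42, adjusted p = 3.72e-06 and 1.45e-06, limma). Eps15, Pak4, Itsn1 and Fcho2 lay between 0.693 and 0.406 of Itgav, with log2 ratios of -0.52, -0.82, -1.12 and -1.26 (adjusted p = 5.74e-05, 1.09e-05, 2.04e-06 and 1.79e-06, limma).

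Eps15l1 came nearest to Itgav, at 0.891 ± 0.046 of its TPM (SD, n = 3). Its log2 ratio of -0.16 passed the test (95% CI -0.29 to -0.04, adjusted p = 0.0189, limma) and was below 0 in 3 of 3 libraries. It did not pass without replicate 2 or without replicate 3 (adjusted p = 0.0682 and 0.0507, limma), nor when the spread of each gene was estimated on its own rather than from the ratio (adjusted p = 0.0999, limma).

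**Figure D2:**
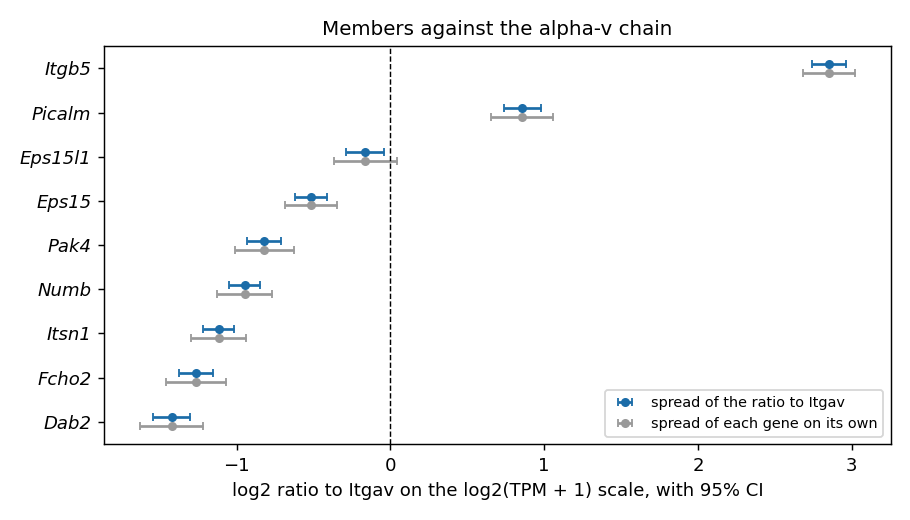
Log2 ratio of each gene to Itgav on the log2(TPM + 1) scale with its 95% confidence interval (n = 3 libraries), from the spread of the ratio (blue) and from the spread of each gene on its own (grey); the dashed line marks equality with Itgav. Itgb5 and Picalm lie to the right, and Eps15l1 at -0.16 is the only gene whose grey interval crosses the line.

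Of the 9 pairs of neighbours in the order of levels, 8 passed the test. The pairs and their direction were set by sorting on the same means, and 94.9% of all genes differed from the same 9 references, so the count is a description and nothing is read from it. Pak4 and Numb did not pass (log2 ratio of Numb to Pak4 -0.13, 95% CI -0.29 to 0.03, adjusted p = 0.11, limma). With the spread of each gene estimated on its own, 4 pairs passed, beside 92.9% of all genes: Itgb5 above Picalm, Picalm above Itgav, Eps15l1 above Eps15 and Eps15 above Pak4. From Pak4 downward the steps from Numb to Itsn1, Itsn1 to Fcho2 and Fcho2 to Dab2 were -0.17, -0.15 and -0.16 on the log2 scale (adjusted p = 0.00915, 0.0199 and 0.0319, limma; 0.0674, 0.127 and 0.139 with each gene's own spread). Without replicate 3, 5 pairs passed, and the last 2 of these steps did not pass without replicate 1 or without replicate 3. The 5 lowest genes were thus ordered alike in every library but by steps that did not all hold against the spread between libraries.

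Numb and Dab2 read cargo through a phosphotyrosine-binding domain. Numb exceeded Dab2 by 1.41 ± 0.067-fold (SD, n = 3; log2 ratio of Dab2 to Numb -0.47, adjusted p = 0.000169, limma). Together they made up 0.870 ± 0.023 times the TPM of Itgav (SD, n = 3), while Itgb5 was 8.45 ± 0.48-fold above their sum. Gulp1, an engulfment adaptor with the same kind of domain, had a mean of 12.3 TPM.

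The most abundant talin and kindlin genes, whose proteins bind the same tails, were higher than these adaptors. Tln1, the gene of talin-1, was 2.54 ± 0.079-fold above Numb (SD, n = 3; log2 ratio 1.31, adjusted p = 1.45e-06, limma) and 3.58 ± 0.091-fold above Dab2 (SD, n = 3; log2 ratio 1.79, adjusted p = 1.81e-05, limma, each gene's own spread). Fermt2, the gene of kindlin-2, was 1.64 ± 0.024-fold above Numb and 2.31 ± 0.14-fold above Dab2 (SD, n = 3; adjusted p = 1.68e-05, limma, and 5.94e-05, limma, each gene's own spread). Of the 5 talin and kindlin genes 3 were detected, the third being Tln2 with a mean of 3.31 TPM, while Fermt1 and Fermt3 stood at 0.741 and 0.186 TPM.

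Each adaptor was then set beside its paralogs, of which 6 of 11 were detected. The neuronal relatives were close to 0. Dab1, an adaptor of the reelin pathway in neurons, had values of 0, 0.041 and 0.014 TPM, and Snap91, the synaptic relative of Picalm, had values of 0.010, 0.016 and 0.015 TPM. Sgip1, a relative of the FCHo proteins, stood at 0.436, 0.539 and 0.337 TPM. These pairs had 1 gene below a mean of 1 TPM and were not tested.

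Where both paralogs were present, their balance differed from family to family. Numb was 1.85 ± 0.012-fold above Numbl (SD, n = 3; log2 ratio of Numbl to Numb -0.85, adjusted p = 6.53e-06, limma), and made up 65.0% ± 0.14 of the pair. Fcho2 was 2.62 ± 0.082-fold above Fcho1 (SD, n = 3; log2 ratio of Fcho1 to Fcho2 -1.29, adjusted p = 1.76e-07, limma). Eps15l1 was 1.29 ± 0.079-fold above Eps15 (SD, n = 3; log2 ratio 0.35, adjusted p = 0.00105, limma). Itsn1 and Itsn2 could not be told apart, with Itsn2 at 25.7, 24.3 and 25.9 TPM (log2 ratio of Itsn2 to Itsn1 0.08, 95% CI -0.03 to 0.19, adjusted p = 0.123, limma), although Itsn2 was the higher in 3 of 3 libraries. Reads shared by such paralogs were split by the authors' counting model, and the effect of that split was not tested.

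Pak4 belongs to the group II PAK kinases, with Pak5 and Pak6. Pak6 stood at 1.84, 1.42 and 1.76 TPM, 17.9 ± 1.91-fold below Pak4 (SD, n = 3; adjusted p = 2.23e-06, limma, each gene's own spread), and Pak5 was listed at 0 in replicates 2 and 3 and at 0.010 TPM in replicate 1. The group I genes Pak1 and Pak2 stood at 30.3, 30.5 and 32.3 TPM and at 35.2, 30.9 and 34.4 TPM, and Pak3 at 0.554, 0.432 and 0.639 TPM. Pak1 could not be told apart from Pak4 (log2 ratio 0.07, 95% CI -0.09 to 0.22, adjusted p = 0.405, limma). Pak2 was higher than Pak4 in 3 of 3 libraries (log2 ratio 0.17, adjusted p = 0.0398, limma), which did not hold with each gene's own spread (adjusted p = 0.0883, limma) or without replicate 1 or replicate 2 (adjusted p = 0.384 and 0.202, limma). Pak1, Pak2 and Pak4 made up 32.2%, 34.7% and 30.7% of the summed TPM of the 6 PAK genes. Pak4 shares 39 exon bases on its own strand with Samd4b (mean 32.4 TPM) in GENCODE M21, and the reads behind them could be assigned to either gene.

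**Figure D3:**
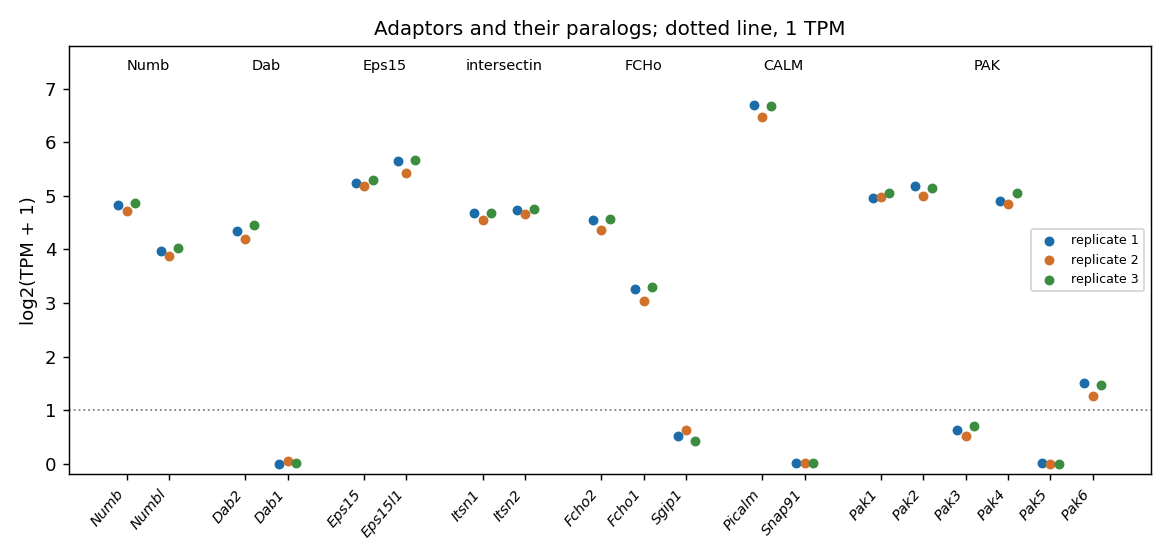
Log2(TPM + 1) of the adaptors and their paralogs by family; points are the 3 libraries and the dotted line marks 1 TPM. Both members of the Numb, Eps15 and intersectin families lie above the line, whereas Dab1, Snap91, Sgip1, Pak3 and Pak5 lie below it.

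RNA of the genes listed for the clathrin coat was then examined, while protein and assembled coats were not measured. Of 10 genes for clathrin chains, AP2 subunits and the AP2-bound NECAPs 10 were detected, where 32.6% of all symbols were. Their median was 73.6 TPM, against a median of 22.9 TPM over all detected genes. Medians of the other lists, with undetected genes counted in, lay on both sides. They were 267 TPM for actin at coats, 39.3 TPM for other adaptors and 23.1 TPM for scission and uncoating. Genes that act on Numb or AP2 had 18.3 TPM, the other beta partners 5.39 TPM, talins and kindlins 3.31 TPM and paralogs 1.67 TPM. The clathrin heavy chain gene Cltc stood at 106, 89.0 and 101 TPM and could not be told apart from Picalm (log2 ratio 0.02, 95% CI -0.13 to 0.17, adjusted p = 0.766, limma). It was 1.86 ± 0.11-fold above Itgav (SD, n = 3; adjusted p = 1.45e-05, limma). The light chain Clta was more abundant, at 411, 400.0 and 381 TPM, 5.27 ± 0.13-fold above Cltb (SD, n = 3).

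The AP2 subunits were not at one level. Ap2m1, the subunit that reads tyrosine-based signals in cargo, stood at 327, 321 and 327 TPM, 6.13 ± 0.22-fold above Itgav (SD, n = 3; log2 ratio 2.59, adjusted p = 1.55e-07, limma). Ap2s1 had a mean of 119 TPM, Ap2b1 of 71.8 TPM, Ap2a1 of 56.9 TPM and Ap2a2 of 35.5 TPM. Ap2a1, whose appendage domain binds DPF motifs such as those of Eps15, was 1.55 ± 0.017-fold above Eps15 (SD, n = 3; adjusted p = 2.70e-05, limma). This excess is that of the pair tested. The mean of Ap2a2 lay below that of Eps15 (36.8 TPM), and Eps15l1, with more DPF codons, had a mean of 47.3 TPM. Ap2a2 against Eps15, and Ap2a1 against Eps15l1, were not tested. Necap1 and Necap2 had means of 38.6 and 60.9 TPM.

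Of 15 other adaptors and early coat genes 14 were detected, with Reps2 at 0.017 TPM in the mean as the exception. Ston1, encoding a stonin adaptor, led the list with 88.5, 83.8 and 94.1 TPM, 18.5 ± 0.46-fold above its relative Ston2 (SD, n = 3; not tested). Epn1 stood at 87.7, 79.2 and 91.7 TPM, Epn2 had a mean of 39.6 TPM and Epn3 of 5.30 TPM, all epsins that couple ubiquitinated cargo and membrane curvature to clathrin. The F-BAR genes Trip10, Fnbp1 and Fnbp1l had means of 80.0, 49.5 and 28.9 TPM, and Reps1, an Eps15-like EH protein, of 39.3 TPM. Hip1 and Hip1r, which link coats to actin, had means of 42.7 and 10.1 TPM, and the arrestins Arrb1 and Arrb2 of 11.9 and 55.9 TPM.

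**Figure D4:**
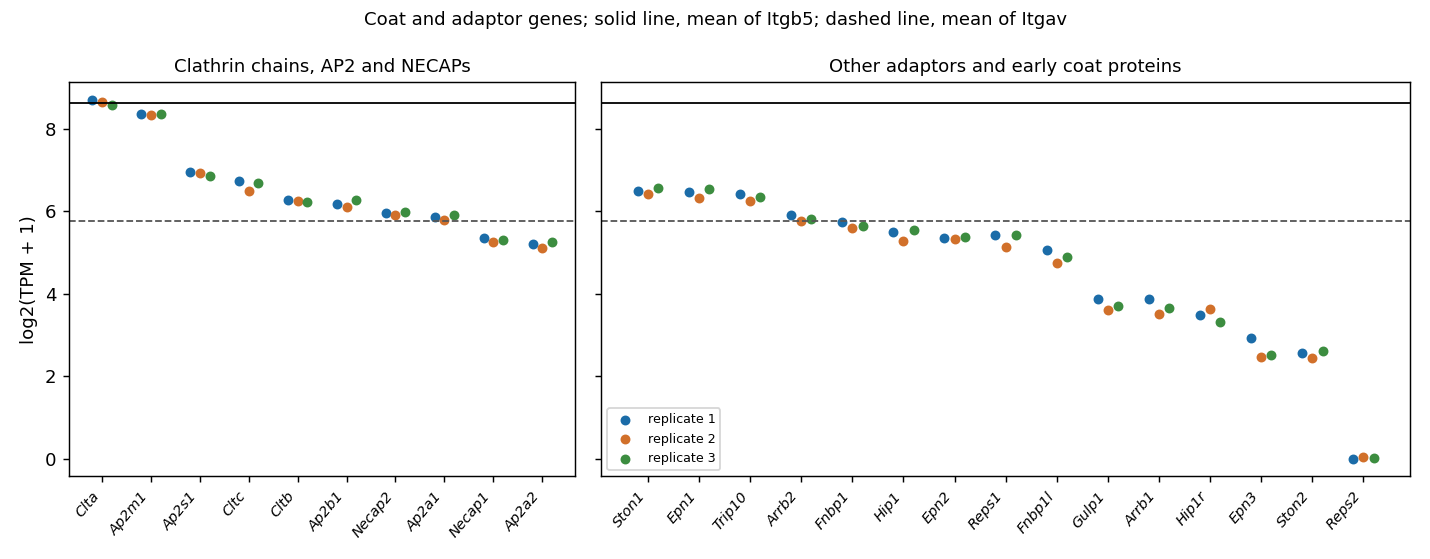
Log2(TPM + 1) of clathrin, AP2 and NECAP genes (left) and of other adaptors and early coat genes (right), each point a library; the solid line is the mean of Itgb5 and the dashed line the mean of Itgav. Clta lies at the Itgb5 line, and Reps2 is the gene near 0.

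Genes for scission and uncoating were detected for 13 of 16, where 32.6% of all symbols were. Hspa8, the uncoating chaperone, had a mean of 2118 TPM, Bin1 of 71.0 TPM and Synj2 of 69.4 TPM. All 7 genes of a short list for branched actin at coats and its regulators were detected. It was led by Arpc2 at 637 TPM, Cdc42, the activator of Pak4, at 301 TPM and Actr3 at 272 TPM. Of 9 genes for kinases, polarity proteins and ligases that act on Numb or AP2 7 were detected, with Prkci, an atypical protein kinase C that phosphorylates Numb, at 75.1 TPM, Tnk2 at 55.1 TPM and Mark2 at 30.1 TPM. The ligase gene Lnx1 was listed at 0 in replicates 1 and 3.

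Replicate 2 held the lowest value for 9 of the 10 genes, with Itgb5 as the exception. Among all detected genes with a protein-coding transcript 62.0% were lowest there, 48.2% of those with transcripts up to the median length of 3144 bases and 75.8% of those above it. The longest protein-coding transcripts of the 10 genes had a median of 4892 bases, from 2899 bases in Pak4 to 14012 bases in Itsn1, and Itgb5 had 3282 bases. The part of transcript length in the low values of replicate 2 was not tested. The size of the low value differed between members: on the log2 scale replicate 2 deviated by -0.08 in Eps15 and -0.10 in Itgav, but by -0.22 in Dab2 and Picalm and -0.23 in Eps15l1. Divided by Itgav of the same library, 8 of 9 genes varied less between libraries, as did 58.7% of the 11664 other detected genes, with the coefficient of variation of Numb going from 5.29% to 1.07%, of Eps15 from 3.95% to 1.10% and of Dab2 from 9.76% to 5.38%. The ratios of Picalm and Eps15l1 still varied by 5.01% and 5.19%. For Itgb5 the coefficient went from 3.05% to 3.26%.

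**Figure D5:**
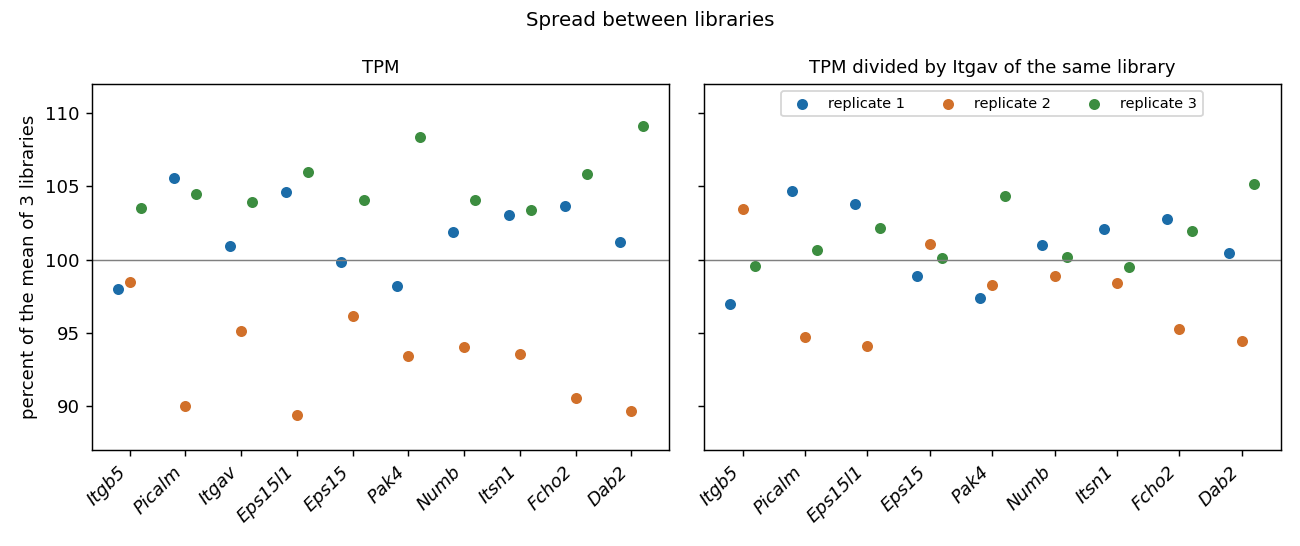
Value of each gene in each library as a percent of its mean over 3 libraries, for TPM (left) and for TPM divided by Itgav of the same library (right). On the left replicate 2 is the lowest point of 9 of 10 genes; on the right the points of Numb, Eps15 and Itsn1 lie closest to 100%.

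In GENCODE M21 on GRCm38, all 10 genes are annotated as protein-coding. Beyond Itgav on chromosome 2 and Itgb5 on chromosome 16, Itsn1 lies on chromosome 16 (91729281 to 91920597, plus strand), Numb on chromosome 12 (83794034 to 83921934, minus strand), Dab2 on chromosome 15 (6299788 to 6440712, plus strand), Eps15 on chromosome 4 (109280268 to 109387817, plus strand) and Eps15l1 on chromosome 8 (72340999 to 72421460, minus strand). Fcho2 lies on chromosome 13 (98723403 to 98815449, minus strand), and Picalm (90130213 to 90213465, plus strand) and Pak4 (28558819 to 28598185, minus strand) on chromosome 7. Itgav and Numb overlap exons of the opposite-strand genes Gm13684 and Gm46367 over 634 and 166 bases, and Dab2 overlaps the opposite-strand processed pseudogene Gm18888, listed at 0, over 211 bases. Eps15l1 shares 56 exon bases on its own strand with Gm45779. The sources used here do not say whether counting used strand, so reads from these stretches cannot be assigned to a strand.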

How the data were processed

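Per the file headers, the authors deposited kallisto TPM values for each gene symbol. Kallisto 0.44.0, bcl2fastq 2.19 and GRCm38.p6 are listed in the submitters' processing notes. The sources used here do not give the annotation release or how transcripts were summed. A short sheet of 33 genes was not used: its 3 column names match no sample label, and all 33 genes repeat the main sheet's values to within 1e-09 TPM. The library names in the column headings matched those of the labels. From the deposited TPM, means, SDs and ratios were computed over 3 libraries in Python 3.11.15 (pandas 2.3.3). Tests were intercept models of log2(TPM + 1) ratios in limma 3.58.1 (R 4.3.3), two-sided, threshold 0.05, for genes whose mean reached 1 TPM; the pseudocount understates ratios of low genes. The procedure was tested on simulated data. With 3 libraries, sign flipping gives an exact p of 0.25 at the lowest, so it was not used.

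Every ratio to a reference carries that reference's own error, so limma pooled the spread strongly for some references (83.9 degrees of freedom for Dab2 and 21.3 for Pak4, against 5.03 at the lowest). Their p-values are therefore too small. A second model with the spread of each gene estimated on its own (4.93 degrees of freedom) was added after the data were seen, and its p is printed for called pairs of those references. It lowers the pooled degrees of freedom but is no full remedy. On simulated data both models called 8.32% of unchanged genes against Dab2. Against Pak4 the first model called 6.92% and the second 5.76%. The simulated noise was drawn for each gene independently, so it held no shifts shared by genes of a library. It therefore cannot judge how the ratios treat such shifts. P-values against Dab2 are best read as too small in both models, and those against Pak4 with the same caution. Of 32 listed pairs 27 were tested, and the other 5 had a gene below a mean of 1 TPM.

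The 10 genes, the lists, the pairs and the rule for named genes (members, genes of pairs, of the paralog, beta-partner, coat, adaptor and talin lists, the top 3 of other lists, and the 3 genes nearest in level to each integrin chain) were chosen with earlier results of these data known. Genes named as undetected, the other markers and the motif searches were chosen after values were seen. Sequences and positions came from GENCODE M21 (GRCm38). Another adaptor gene is not reported here.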

Additional observations from a re-analysis of the deposited data

How the results depend on the processing

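Settings tried were a pseudocount of 0.1 or 5 TPM, no filter on low genes, a spread trended on level, TPM rescaled after removing mitochondrial and ribosomal protein genes, a detection minimum of 0.5 or 5 TPM, detection judged on the mean, leaving out each replicate, and, added after the data were seen, the spread of each gene on its own. No direction of a tested pair reversed under them, and the count of detected members stayed at 10. The number of neighbouring pairs that passed was 8, fell to 4 with each gene's own spread, and ranged from 5 to 7 when a replicate was left out. The steps that were lost in one or more of these were Itgav to Eps15l1, Numb to Itsn1, Itsn1 to Fcho2 and Fcho2 to Dab2. Without the filter on low genes, Fcho2 and Dab2 (adjusted p = 0.0623, limma) and Pak4 and Pak2 (adjusted p = 0.114, limma) no longer passed. No paired analysis was possible because only 1 group was sequenced, so replicate numbers link no groups. Genes were paired inside libraries in every ratio, and the model with each gene's own spread drops that pairing. The read depth is unknown, so levels near 0 have no counting limit.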
